A study of Mus musculus with 30 samples.

Results

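The 42 genes described here encode the machinery that copies DNA and supplies its building blocks. They were chosen as a list of S phase genes by name, but earlier results of these data were known at that time. All 42 were found among the 46078 genes of the count table, and all 42 had counts in each of the 30 libraries. RNA was sequenced from the colon of C57BL/6J mice, with 6 animals in each of 5 groups: females and males on a control diet (CD), females and males on a high fat diet (HFD), and HFD males given estradiol (E2). The diets were given for 13 weeks to young mice, and in the last 3 weeks every animal received 9 intraperitoneal injections, of vehicle in the first 4 groups and of E2 at 0.5 mg per kg body weight in the last. The females kept their ovaries, all mice came from in-house breeding, and no CD group, and no female group, given E2 was analysed here. The RNA came from colon tissue without separation of cell types, so that fewer dividing cells and less RNA per dividing cell cannot be told apart.

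A cell prepares for DNA synthesis by loading the ring-shaped Mcm2 to Mcm7 helicase onto origins, a step called licensing that needs the origin recognition complex (Orc1, Orc6), Cdc6 and Cdt1. Cdc45 and the GINS proteins then switch the helicase on, primase (Prim1, Prim2) and DNA polymerase alpha start each new strand, and polymerases epsilon and delta extend it while held by the Pcna clamp, which the replication factor C complex (Rfc1 to Rfc5) loads. Ribonucleotide reductase (Rrm1, Rrm2) and the thymidine enzymes provide deoxynucleotides, and many of these genes are turned on together by E2F transcription factors when a cell enters S phase. In the colon, dividing epithelial cells lie in the lower part of the crypts.

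To show what these genes share beyond function, their RefSeq promoters (GRCm38.p6, 250 bases before to 50 after the transcription start) were searched on both strands. A promoter sequence was found for 35 of the 42 genes. The words TTTCGCGC, TTTGGCGC and TTTCCCGC, which are forms of the E2F motif, occurred in 13 of the 35 genes (37.1%) and in 2.12% of 27025 mouse genes. CCAAT, the word bound by NF-Y, occurred in 60.0% of the members and 41.1% of all genes. The cell cycle homology words TTTGAA and TTCGAA, in contrast, occurred in 17.1% of the members and 21.7% of all genes. The estrogen response element (GGTCA and TGACC with any 3 bases between them) occurred in 0 of the 35 genes. Among all genes it occurred in 0.074%, or 20 of 27025. At so low a share, 0 among 35 genes cannot set the members apart from other genes. For the 13 genes the E2F words are printed here in capitals within 30 bases, because of the 4 motifs searched this one differed most in share between the members and all genes. Each line gives the window in GRCm38 with its strand and reads 5′ to 3′.
Orc1 (chr4:108579416-108579445, +): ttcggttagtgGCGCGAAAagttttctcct
Cdc6 (chr11:98908002-98908031, +): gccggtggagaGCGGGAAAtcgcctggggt
Cdt1 (chr8:122568035-122568064, +): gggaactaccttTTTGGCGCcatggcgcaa
Mcm3 (chr1:20820275-20820304, -): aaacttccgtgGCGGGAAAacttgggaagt
Mcm5 (chr8:75109345-75109374, +): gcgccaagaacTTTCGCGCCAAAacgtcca
Mcm6 (chr1:128359797-128359826, -): tggcgtatgctTTTGGCGCGAAAagtgcgt
Mcm7 (chr5:138172030-138172059, -): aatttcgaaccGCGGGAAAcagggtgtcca
Pola1 (chrX:93632275-93632304, -): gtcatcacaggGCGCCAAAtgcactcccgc
Pole2 (chr12:69228162-69228191, -): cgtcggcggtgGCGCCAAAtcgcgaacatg
Pold1 (chr7:44548766-44548795, -): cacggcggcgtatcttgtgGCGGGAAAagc
Rfc3 (chr5:151651200-151651229, -): acgtcgcacgcTTTCGCGCtcGCGGGAAAa
Lig1 (chr7:13278841-13278870, +): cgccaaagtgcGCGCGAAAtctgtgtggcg
Uhrf1 (chr17:56304117-56304146, +): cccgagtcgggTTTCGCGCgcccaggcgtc
Of these 13 genes, 7 take part in origin licensing. Mcm6 had 3 matches, Mcm3, Mcm5, Mcm7 and Rfc3 had 2 each, and in Mcm5 and Mcm6 a pair of matches overlapped. In all, 11 of the 19 matches started within 100 bases before the transcription start or after it. A match is a description of letters and not a bound site.

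Depth ranged from 8667177 to 17243712 counts on genes per library, of which the 42 genes took from 4239 to 12901. The mitochondrial share of counts was 26.1% to 38.0%. Markers of colon epithelium such as Epcam and Krt8 were detected in every group, with group medians of their summed TPM from 4337 to 5130. In 6 libraries, HFD females 1, 3, 4 and 5 and HFD males 2 and 4, keratin genes of stratified squamous epithelium were present (mean of 8 markers from 2.64 to 6.55 log2 CPM), and their summed TPM ranged from 0.0477 to 1299 in HFD females and from 0.0343 to 296 in HFD males. In the E2 libraries this sum was at most 1.09 TPM, with 2 of the 8 markers at 0 in every library, and in CD females and CD males it was at most 4.15 and 10.3 TPM. Results that rest on these 6 libraries are therefore also given without them.

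The 42 genes were expressed at low to moderate levels. Their mean over 30 libraries ranged from 0.648 TPM (a level per length of transcript, scaled to the library total) for E2f1 to 28.7 TPM for Pcna, with a median of 5.69 TPM. The highest in each role were Mcm7 among licensing genes (14.0 TPM), Gins4 among helicase activators (10.9 TPM), Pold2 among polymerases (7.45 TPM), Pcna among clamp genes, Rpa1 among single strand binding and lagging strand genes (9.42 TPM), Rrm1 among nucleotide enzymes (12.4 TPM) and Uhrf1, which binds hemimethylated DNA, among the chromatin genes (6.47 TPM). Median counts ran from 14.0 per library for Gins1 to 619.5 for Rfc1, the large subunit of the clamp loader. The lowest count of E2f1 in a library was 1, so that Gins1 and E2f1 were measured with little precision.

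The members varied together from animal to animal. After the mean of each group was removed, log2 CPM of a member correlated with the mean of the other 41 members with a median Pearson r of 0.757 over 30 libraries, and 35 of 42 members had r over 0.5. Among 14968 other genes tested, 2.05% had r over 0.5 with the members' mean, and their median r was -0.03. Pole, the catalytic subunit of polymerase epsilon (r = 0.928), Mcm7 (0.92) and Mcm5 (0.902) followed the rest most closely. Gins4 (-0.084), Rfc1 (0.229), Cdt1 (0.252) and Pold1 (0.279) did not. The libraries also share depth and tissue composition along this axis, and the values are a description.

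**Figure D1:**
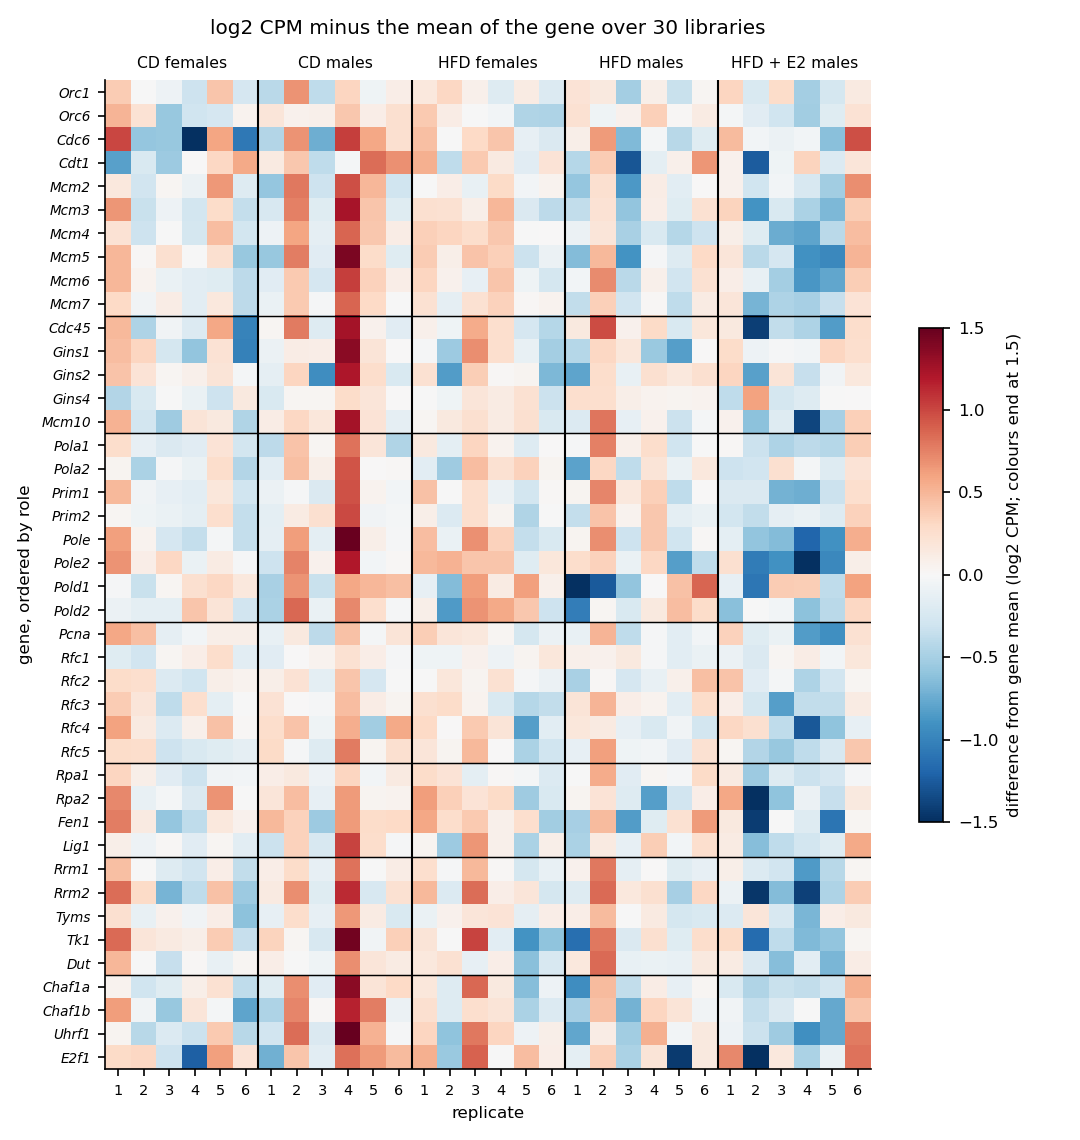
Each row is 1 of the 42 genes, grouped by role from licensing at the top to chromatin genes at the bottom, and each column is 1 library. Colour gives log2 CPM minus the gene's mean over 30 libraries. CD male 4 is red in most rows, with the group's highest TPM in 37 of 42 genes, while E2 males 2 and 4 are blue in most rows.

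The animal with the highest levels was a CD male. Summed over the 42 genes, CD male 4 had 488 TPM, the highest of 30 libraries, and the other CD males ranged from 244.7 to 336 TPM. This animal held the highest TPM of its group in 37 of 42 members, compared with 20.1% of all genes. HFD males spanned 207 to 388 TPM, with the squamous-containing library 2 highest, CD females 225 to 342 TPM and HFD females 226 to 366 TPM. The E2 males had 163, 190, 197, 200, 297 and 322 TPM. Thus by summed TPM 4 of the 6 E2 libraries were the lowest 4 of all 30, and the remaining 2, replicates 1 and 6, were within the range of the HFD males. On mean log2 CPM of the 42 genes E2 males 2, 4 and 5 were lowest (2.693 to 2.793). E2 male 3 (2.951) was level there with HFD males 3 (2.953) and 1 (2.96). Replicates 1 and 6 were the top pair of the E2 group in 24 of 42 members (57.1%), compared with 7.11% of all genes.

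**Figure D2:**
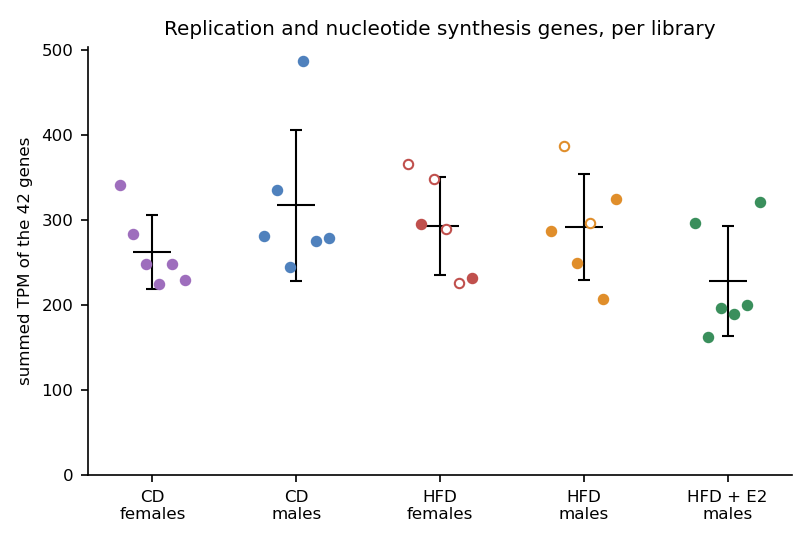
Summed TPM of the 42 genes in each library, with the group mean and SD (n = 6) as bars. Open points are the 6 libraries with squamous keratins. The E2 group has 4 libraries at 163 to 200 TPM and 2 at 297 and 322 TPM.

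To study the response of replication genes to estrogen, E2-treated HFD males were compared with vehicle-treated HFD males. In all 42 genes the adjusted p-value was above the threshold of 0.05 (edgeR, lowest 0.464, 0 calls), and DESeq2 also gave 0 calls. By comparison, 0.00666% of all 15010 genes tested passed it. Without adjustment (p under 0.05), 5 members passed, or 11.9%, against 10.2% of all genes. The threshold used by the study asks for p under 0.05 without adjustment and for more than 0.4 on the log2 scale in either direction. By it, 4 members were lower and 0 were higher with E2. That is 9.52% of the members lower, against 3.24% of all genes lower and 2.63% higher. The 4 genes were Rfc3, Prim1, Cdc45 and Rrm2, and each belongs to a different step of replication.

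Rfc3, a small subunit of the clamp loader, measured 7.39, 12.5 and 16.1 TPM (lowest, median and highest) in vehicle males and 4.91, 7.89 and 12.3 TPM in E2 males. In TPM all 6 E2 animals were under the vehicle median, yet the groups overlapped. In counts relative to the library total, E2 males 1 and 6 were above the vehicle median. The log2 fold change was -0.42 (SE 0.17, 95% interval -0.78 to -0.05, edgeR adjusted p = 0.464). Prim1, the catalytic subunit of primase, measured 3.35, 7.91 and 8.12 TPM in vehicle males and 2.29, 3.41 and 6.41 TPM in E2 males. Again all 6 E2 animals were under the vehicle median in TPM, and 4 vehicle animals exceeded every E2 animal. The counts, on which the tests were made, gave another order. E2 male 6 (5.90 TPM) had 104 Prim1 counts of 9064697, and HFD male 6 (7.97 TPM) had 90 of 8667177. The log2 fold change of Prim1 was -0.49 (SE 0.21, interval -0.92 to -0.05, edgeR adjusted p = 0.47).

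Cdc45, which joins the helicase when it fires, measured 1.11, 3.06 and 5.71 TPM with vehicle and 0.158, 0.98 and 3.89 TPM with E2. In TPM it was under the vehicle range in 3 of 6 E2 animals but reached the second highest level of both groups in E2 male 1. The counts differed less at the low end. E2 male 4, the lowest in TPM, had 43 counts of 12027547, and HFD male 5 (1.11 TPM) had 46 of 13113878. The log2 fold change was -0.64 (SE 0.27, interval -1.22 to -0.06, edgeR adjusted p = 0.476). Cdc45 shares 5.96% of its exon bases with Ufd1 on the opposite strand. Rrm2, the small subunit of ribonucleotide reductase and its cell cycle regulated part, measured 2.65, 4.53 and 7.995 TPM with vehicle and 1.21, 2.79 and 5.21 TPM with E2. Its groups overlapped as well, with 5 of 6 E2 animals under the vehicle median. Its log2 fold change was the lowest of the 42 at -0.70 (SE 0.31, interval -1.34 to -0.05, edgeR adjusted p = 0.476).

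A pair of further genes completed the 6 with the smallest p-values. Rpa1, the large subunit of the single strand binding protein, measured 8.51, 9.67 and 13.9 TPM with vehicle and 7.21, 7.95 and 9.93 TPM with E2, where 4 of 6 animals were under the vehicle range. It passed the unadjusted threshold but had a log2 fold change of -0.31 (SE 0.14, edgeR adjusted p = 0.479). Rrm1, the large subunit of ribonucleotide reductase, measured 8.89, 12.1 and 22.3 TPM with vehicle and 6.33, 9.09 and 13.4 TPM with E2. The highest vehicle value came from HFD male 2, and the log2 fold change was -0.36 (SE 0.18, edgeR adjusted p = 0.506) with this animal and -0.17 without it.

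**Figure D3:**
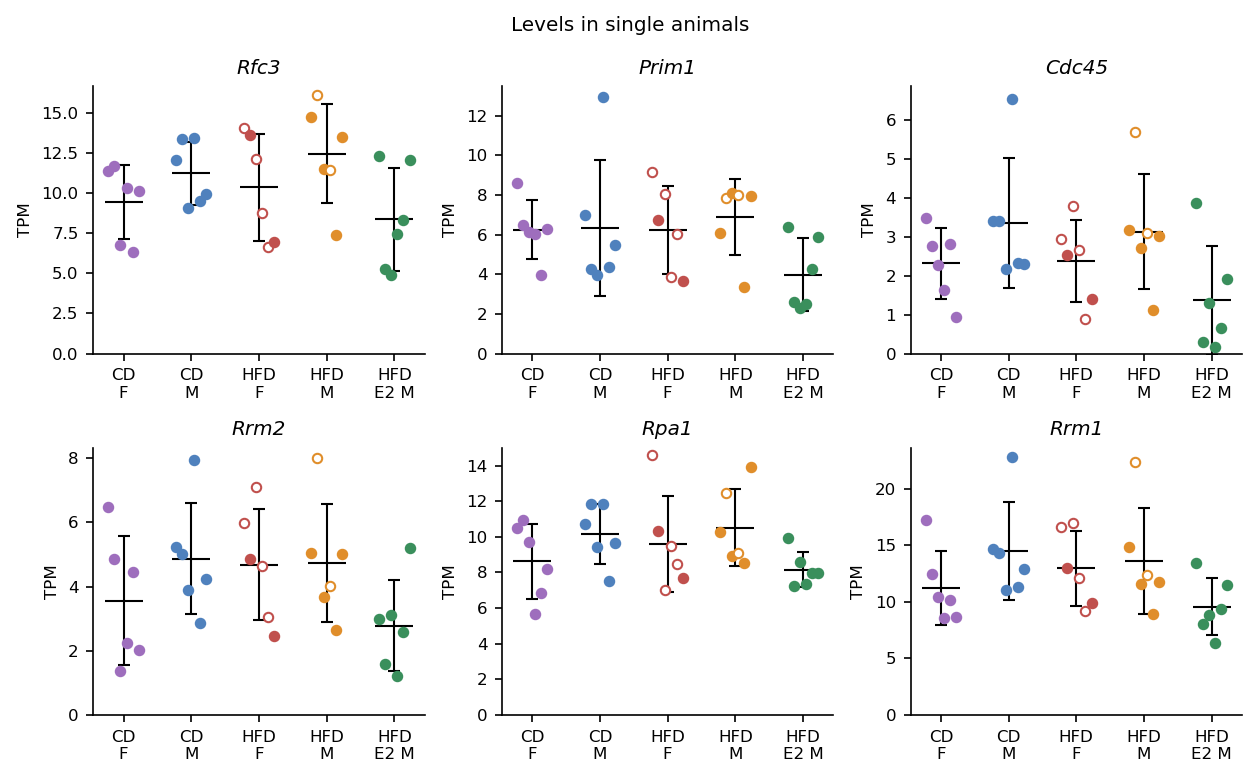
TPM of the 6 genes with the smallest p-values for E2 versus vehicle, in each animal of all 5 groups (F females, M males), with mean and SD (n = 6). Open points are libraries with squamous keratins. E2 and vehicle HFD males overlap in all 6 genes, and HFD male 2, an open point, is the highest HFD male for Rfc3, Cdc45, Rrm2 and Rrm1.

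The promoters of the 4 genes that met the threshold of the study are shown up to the first annotated start, because these are the genes on which the E2 comparison turns. Capitals mark E2F and CCAAT words that lie wholly within the stretch.
Rfc3 (chr5:151651243-151651458, -): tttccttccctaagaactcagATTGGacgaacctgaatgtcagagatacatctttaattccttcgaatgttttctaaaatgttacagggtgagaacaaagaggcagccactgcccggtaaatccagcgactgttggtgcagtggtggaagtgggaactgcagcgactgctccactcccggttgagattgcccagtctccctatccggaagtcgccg
Prim1 (chr10:128014965-128015167, +): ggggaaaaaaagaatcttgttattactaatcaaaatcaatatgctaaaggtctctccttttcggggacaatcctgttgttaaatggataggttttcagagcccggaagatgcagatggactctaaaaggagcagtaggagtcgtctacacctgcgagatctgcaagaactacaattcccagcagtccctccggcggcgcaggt
Cdc45 (chr16:18811988-18812222, -): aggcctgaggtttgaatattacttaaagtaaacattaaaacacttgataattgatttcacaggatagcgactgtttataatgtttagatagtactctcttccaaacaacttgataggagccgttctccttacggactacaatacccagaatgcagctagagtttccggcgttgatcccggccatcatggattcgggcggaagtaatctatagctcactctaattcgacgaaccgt
Rrm2 (chr12:24708004-24708240, +): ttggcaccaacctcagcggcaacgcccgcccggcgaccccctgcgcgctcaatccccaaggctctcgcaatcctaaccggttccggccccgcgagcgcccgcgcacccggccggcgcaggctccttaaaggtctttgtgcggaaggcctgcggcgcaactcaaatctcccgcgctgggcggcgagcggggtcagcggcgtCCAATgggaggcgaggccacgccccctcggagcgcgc
Only Rfc3 among the 4 held E2F words, which start 10 bases before the RefSeq start and at it and lie beyond the stretch shown here, in the 30-base window given above. The CCAAT words of Prim1 (9 bases before the start) and Cdc45 (13 and 2 bases before it) also lie past the first annotated start. Rrm2 has its CCAAT word 50 bases before the start and Rfc3 229 bases before it. Of the searched words, only CCAAT was thus common to the 4 genes, which 60.0% of the members with a promoter hold.

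By role, the log2 fold changes with E2 were below 0 in all 5 nucleotide synthesis genes (median -0.40), 8 genes of polymerase and primase had a median of -0.27 with 6 below 0, and all 4 single strand binding and lagging strand genes were below 0 (median -0.21). The nucleotide genes ranged from -0.70 for Rrm2 to -0.15 for Tyms, thymidylate synthase, with Tk1, thymidine kinase, at -0.41 and Dut, which removes dUTP, at -0.40. Licensing genes were nearest to 0 (median -0.08, 6 of 10 below 0), and Mcm2 (0.17) and Cdc6 (0.24) were above it. Clamp and clamp loader genes had a median of -0.17, helicase activators of -0.13 and chromatin genes of -0.10. The genes with the highest mean TPM of their roles that were not yet named had log2 fold changes of -0.16 for Mcm7, -0.13 for Gins4, -0.20 for Pold2, -0.16 for Pcna and -0.16 for Uhrf1, with edgeR adjusted p-values from 0.727 to 0.845. Leaving out 1 animal moved these values from -0.27 (without E2 male 6) to -0.06 (without HFD male 2) for Mcm7, from -0.28 (without E2 male 2) to -0.05 (without E2 male 1) for Gins4 and from -0.34 (without HFD male 1) to -0.08 (without HFD male 5) for Pold2. Pcna ran from -0.28 without E2 male 1 to -0.03 without HFD male 2, and Uhrf1 from -0.47 without E2 male 6 to -0.01 without HFD male 4. Over the 42 genes the median was -0.16 with 33 below 0 (78.6%), while over all genes tested it was 0.001 with 49.8% below 0.

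**Figure D4:**
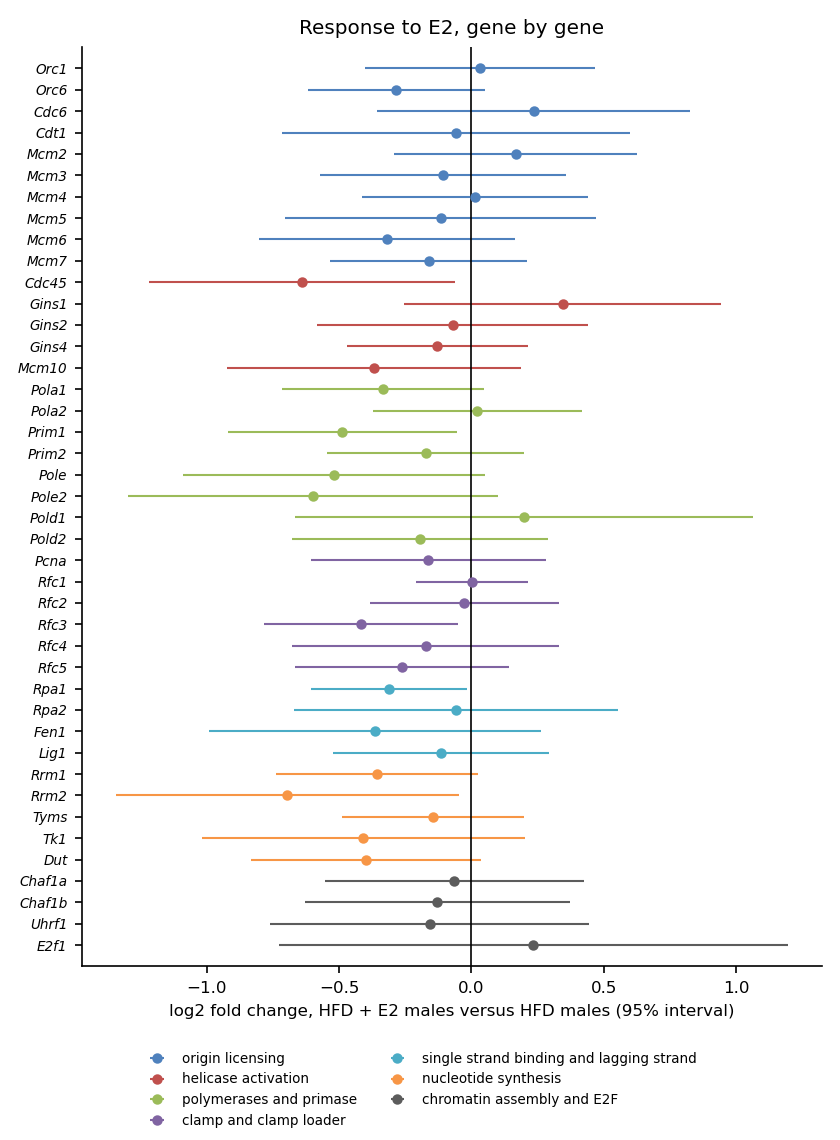
log2 fold change of each gene in HFD males given E2 versus vehicle, with its 95% interval, coloured by role. Intervals of Rfc3, Prim1, Cdc45, Rrm2 and Rpa1 end below 0, and the other 37 include it.

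The count at the threshold of the study and the size of the shift depended on single libraries. Leaving out 1 animal gave medians from -0.28 to -0.09. Below 0 were from 28 of 42 members (without E2 male 2) to 38 (without E2 male 6). Without HFD male 2, the squamous-containing vehicle library with the highest sum of its group, 0 members met the threshold of the study (3.67% of all genes in that fit, in either direction) and the median was -0.09. Without HFD males 2 and 4 the count was 0 (0 at an unadjusted p under 0.05, against 5.03% of all genes) and the median -0.02 with 23 of 42 below 0. Without E2 male 6, in contrast, 11 members met it, all lower, against 5.84% of all genes in either direction. They were led by Pole (log2 fold change -0.81) and Rrm2 (-0.95), and the median was -0.28. The count was also 0 without E2 male 3 or 4, 1 without E2 male 5, 2 without HFD male 4 or 6 or E2 male 2, 7 without E2 male 1 and 8 without HFD male 5. The share of all genes at that threshold also moved between these fits, from 4.23% without E2 male 4 to 9.15% without HFD male 5 and 9.86% without E2 male 1. Of the 8 squamous markers only 1, Krt14, was tested in this comparison (log2 fold change -2.92, edgeR adjusted p = 0.476). The mean of the 8 was 1.83 lower in log2 CPM with E2 (exact permutation test, p = 0.297, adjusted p = 0.611). With this mean as a covariate 0 members met the threshold of the study (3.41% of all genes), with a median of -0.02.

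The 63 other genes of replication, nucleotide metabolism and S phase chromatin that were examined had a median of -0.17 with 50 below 0, and 3 of them met the threshold of the study, all lower: Rpa3, the smallest subunit of the single strand binding protein (-0.45), Ticrr, which helps origins fire (-0.57), and Ccna2, the cyclin of S and G2 phase (-0.80). None of the 63 passed the adjusted threshold (edgeR, 9 at an unadjusted p under 0.05, DESeq2 0). Genes of G2 and mitosis were lower by more: all 12 of the list, among them Ccnb1 (-1.26) and Kif11 (-1.03), met the threshold of the study, with a median of -0.73, although 0 passed the adjusted threshold in edgeR and 3 did in DESeq2. Without the squamous libraries 7 of the 12 still met it and the median was -0.53. These 12 genes were known to be lower in earlier analysis of the same data, so their count is given as a comparison with the S phase genes and not as independent evidence.

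To examine the impact of HFD, it was compared with CD within each sex in vehicle-treated mice. In males, the median log2 fold change of the 42 genes was -0.26 with 38 below 0 (90.5%), against -0.007 and 51.3% of all 14991 genes. In females the median was 0.10 with 33 above 0 (78.6%), against 0.001 and 50.3% of all 15061 genes. The adjusted threshold was passed by 0 members in either sex, and DESeq2 gave 0 in both. Without adjustment, p was under 0.05 for 1 member in males (2.38%, against 6.03% of all genes) and for 0 in females (against 5.68%). Among all genes 0.0% passed in males and 0.0199% in females. At the threshold of the study 1 member was lower in HFD males, against 1.64% of all genes lower and 1.25% higher, and 0 members were higher or lower in HFD females, against 2.95% of all genes higher and 0.724% lower. The study itself listed Mcm2, Mcm3, Mcm4, Mcm5, Mcm7, Chaf1a, Chaf1b and Uhrf1 among its HFD-regulated genes of males. Why its calls and those made here differ was not tested.

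The gene that met the threshold of the study in males here was Mcm4, a subunit of the helicase ring. Mcm4 measured 6.39, 8.01 and 13.6 TPM in CD males and 4.34, 6.08 and 8.29 TPM in HFD males, where 4 of 6 animals were under the CD range. Its log2 fold change was -0.55 (SE 0.18, interval -0.93 to -0.18, edgeR unadjusted p = 0.00653, adjusted p = 0.704). In females the order was the opposite. Mcm4 measured 4.97, 6.17 and 8.09 TPM on CD and 6.21, 8.78 and 10.5 TPM on HFD, with a log2 fold change of 0.26 (SE 0.14, edgeR adjusted p = 0.963), and 4 of 6 HFD females exceeded every CD female.

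Chaf1a, the large subunit of the chromatin assembly factor that deposits histones behind the fork, measured 2.08, 2.996 and 7.04 TPM in CD males and 1.67, 2.46 and 3.84 TPM in HFD males (log2 fold change -0.57, SE 0.28, edgeR adjusted p = 0.826). Its highest value was that of CD male 4, without which the log2 fold change was -0.29. Of the exon bases of Chaf1a, 52.5% are shared with Ubxn6 on the opposite strand, and how the counting used strand is not given in the sources used here, so that its level is uncertain. Uhrf1 had the largest positive value of the 42 in females: it measured 3.36, 5.55 and 6.28 TPM on CD and 4.12, 7.43 and 10.7 TPM on HFD (log2 fold change 0.36, SE 0.21, edgeR adjusted p = 0.999). Its direction turned without the squamous-containing libraries (-0.08) and with squamous markers as a covariate (-0.10), and it was 0.19 without HFD female 3. In males Uhrf1 had a log2 fold change of -0.63 (SE 0.34, edgeR adjusted p = 0.826).

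**Figure D5:**
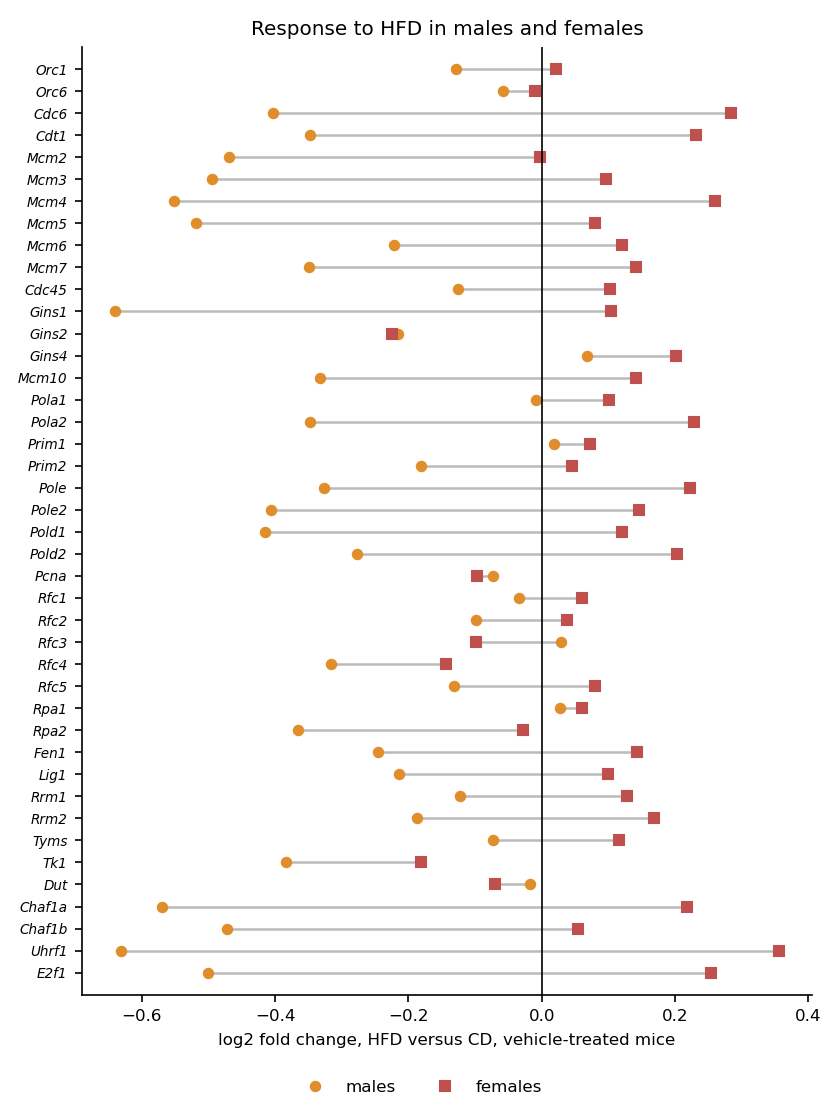
log2 fold change of each gene for HFD versus CD in males (circles) and in females (squares), vehicle-treated mice. The square lies to the right of the circle in 38 of 42 genes, and 30 genes are below 0 in males and above 0 in females.

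Chromatin genes (median -0.54) and licensing genes (median -0.38, 10 of 10 below 0) had the lowest values in males, while clamp and clamp loader genes (-0.09) and nucleotide enzymes (-0.12) were nearer to 0. In females the role medians ran from -0.03 for clamp genes to 0.24 for chromatin genes. The difference between the sexes in the diet response was tested directly over the 24 vehicle libraries. In this fit 0 members passed the adjusted threshold in edgeR or in DESeq2 (0.0% of 15800 genes in edgeR), and 4 passed at an unadjusted p under 0.05, or 9.52%, against 6.75% of all genes. These were Mcm4 (female minus male response 0.81, SE 0.24, edgeR adjusted p = 0.5), Uhrf1 (0.98), Mcm7 (0.49) and Chaf1a (0.78), and 38 of 42 members had values above 0 with a median of 0.33, against 0.007 for all genes. Markers of some other cell types had the same sign. Of the smooth muscle markers, 8 of 8 were above 0 (median 0.46, 2 at the threshold of the study). So were 7 of 8 fibroblast markers, with 3 at that threshold, among them the collagens Col1a1 (1.31) and Col3a1 (0.78). None of these 16 markers passed the adjusted threshold (edgeR, DESeq2 also 0; 6 at an unadjusted p under 0.05). All 7 squamous markers tested were above 0 as well (median 4.80), and all 8 B cell markers were below 0 (median -1.25). Goblet cell markers were below 0 in 7 of 8 (median -0.22), and pan epithelial markers in 4 of 7 (median -0.05). With smooth muscle markers as a covariate the members' median was 0.28. Mcm4 was then the 1 member left with p under 0.05, against 3.7% of all genes. With squamous markers the median was 0.14, with 32 members above 0. The part of fibroblasts in this result was not tested.

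Both diet comparisons also rested on few libraries. In males the median was -0.05 without CD male 4, and Mcm4 then still met the threshold of the study (-0.41). Without the squamous-containing HFD males 2 and 4 the median was -0.37 and 7 members met it, all lower, against 2.35% of all genes lower in that fit: Mcm4, Mcm7, Mcm10, Pola2, Chaf1a, Chaf1b and Uhrf1. In females the median was -0.07 without the 4 squamous-containing libraries, which leaves 2 HFD females, and 2 members were then lower at the threshold of the study, against 1.16% of all genes: Gins2 (-0.97) and Pold2 (-0.57). Of the exon bases of Gins2, 67.3% are shared with Gse1 on the opposite strand, so that its level is uncertain as well. With squamous markers as a covariate the medians were -0.31 in males, with 3 members at the threshold (1.67% of all genes lower), and -0.14 in females, with 34 of 42 below 0, and with pan epithelial markers the female median was -0.01. The difference between the sexes was thus measured with squamous tissue in 4 of 6 HFD female libraries and 2 of 6 HFD male libraries. Without these 6 libraries its median was 0.20 with 36 of 42 above 0, and 1 member had p under 0.05, against 2.09% of all genes. This was Mcm4 (0.85, SE 0.31, edgeR adjusted p = 1.0). Without CD male 4 the median was 0.12 with 31 above 0. Again Mcm4 alone had p under 0.05, against 5.62% of all genes. It also met the threshold of the study (0.66), against 4.45% of all genes.

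Finally, females were compared with males. On CD, 41 of 42 members had log2 fold changes below 0 (median -0.26), that is lower values in females, against 47.8% of all 14922 genes. The exception was Pcna (0.13). The adjusted threshold was passed by 0 members (edgeR, DESeq2 also 0), against 2.92% of all genes. Without adjustment 2 members had p under 0.05, against 14.8% of all genes, and both met the threshold of the study as lower in females, or 4.76%, against 6.21% of all genes lower and 2.94% higher. One was Uhrf1, with 5.23, 6.71 and 18.9 TPM in CD males and the values given above in CD females (log2 fold change -0.73, SE 0.32, edgeR adjusted p = 0.299). The other was Chaf1a, with 1.81, 2.25 and 2.53 TPM in CD females, where 5 of 6 CD males exceeded every female (log2 fold change -0.56, SE 0.25, edgeR adjusted p = 0.301). Without CD male 4 the count was 0 (8.28% of all genes), the median was -0.10, and Uhrf1 was at -0.36 and Chaf1a at -0.27. The same 6 CD males enter the diet comparison of males. Smooth muscle markers were also lower in CD females, with 8 of 8 at the threshold of the study and 6 past the adjusted one (median -0.61). Their summed level ranged from 2568 to 3991 TPM in CD females and from 4064 to 6762 TPM in CD males, and with their mean as a covariate the members' median was 0.06, with Chaf1a (0.07) and Uhrf1 (0.19) above 0. This mean overlapped little between the sexes (9.27 to 9.84 log2 CPM in CD females, 9.66 to 10.4 in CD males). The fit can therefore hardly separate sex from smooth muscle content. Other tissue markers differed too. All 8 goblet cell markers were higher in CD females (median 0.43, 2 past the adjusted threshold), 7 of 8 fibroblast markers were lower (median -0.46, 2 past it), and 8 of 8 B cell markers were higher (median 1.34, 0 past it in edgeR and in DESeq2, 4 at an unadjusted p under 0.05). With B cell or pan epithelial markers as a covariate 0 members met the threshold of the study and the medians were -0.21 and -0.20. The part of goblet cells and fibroblasts was not tested.

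On HFD, 30 of 42 members had values above 0 in females (median 0.08), against 0.006 for all genes. Again 0 members passed the adjusted threshold (edgeR, DESeq2 also 0), against 0.0988% of all genes. Without adjustment 1 had p under 0.05, against 5.09% of all genes, and it was higher in females at the threshold of the study, against 2.01% of all genes higher and 1.08% lower. This was Mcm4, which was higher in all 6 HFD females than the median of HFD males (log2 fold change 0.46, SE 0.13, edgeR unadjusted p = 0.00303, adjusted p = 0.746). Without the 6 squamous-containing libraries, which leaves 2 females and 4 males, Mcm4 was at 0.49 (SE 0.22, edgeR unadjusted p = 0.0447, adjusted p = 1.0), again the 1 member at the threshold, against 0.996% of all genes higher, and the median of the members was 0.03. With squamous markers as a covariate Mcm4 was at 0.35 and missed the threshold of the study, and the median was -0.09. Cdc45 (-0.49) was the 1 member that met this threshold, lower in females, against 1.95% of all genes lower and 1.56% higher. Pole2, the accessory subunit of polymerase epsilon, measured 0.697, 1.83 and 2.35 TPM in HFD males and 1.46, 2.51 and 3.36 TPM in HFD females (log2 fold change 0.36, SE 0.23, edgeR adjusted p = 0.872; 0.23 without HFD male 5 and 0.58 without the squamous-containing libraries). Pole2 was listed at 0 TPM in 3 of the 30 libraries, E2 males 2, 4 and 5, although its counts were at least 12 in each. It shares 8.5% of its exon bases with another gene on the same strand.

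Across the 5 groups, the order of the group means of the summed level was CD males (317 ± 88.4 TPM, SD, n = 6), HFD females (293 ± 57.7), HFD males (292 ± 62.0), CD females (263 ± 43.8) and E2 males (228 ± 64.7). Neighbours in this order lay within 1 SD of each other, and no test was made of this sum.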

How the data were processed

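RNA-seq of mouse colon gave 1 library for each of 30 animals, grouped by the diet, sex and treatment in their titles. The authors mapped paired-end reads of stranded, rRNA-depleted total RNA to GRCm38 with STAR and deposited raw counts per gene from featureCounts, whole numbers without normalization. They also deposited TPM values from StringTie, scaled to transcript length and library total; TPM served for levels and counts for tests. Per the labels, bcl2fastq 2.19.1.403 and Trim Galore were used before mapping. The strand setting of the counting is not given in the sources used here. Of the 42 genes, 12 share at least 5% of their exon bases with another gene (GENCODE M21). Among them are Cdc45 (5.96%, with Ufd1) and Mcm7 (7.25%, with Ap4m1). For 30 of 30 libraries the closest TPM profile was its own.

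For each comparison, raw counts of 12 libraries were fitted in R 4.3.3 by edgeR 4.0.16 (filterByExpr, TMM, robust quasi-likelihood F-test, Benjamini-Hochberg adjustment over all genes tested), and the interaction of sex and diet to 24 libraries. The test was checked on simulated counts. The study's threshold was read as p under 0.05, unadjusted, with more than 0.4 on the log2 scale, and DESeq2 1.42.0 was an alternative. In the main fits, p-values measure the spread between 6 animals a group, and fits without some libraries rest on fewer. Levels of 14 marker lists were tested on mean log2 CPM by exact permutation, two-sided (prior count 2), in 70 tests. In these, 0 had an adjusted p under 0.05, and the smallest p that 6 against 6 animals can give is 0.00216. At this floor (exact permutation test, adjusted p = 0.0505) were the mitosis list for E2 (-0.75) and the plasma cell list in HFD females. The plasma cell list was 1.23 higher than in CD females and 1.23 higher than in HFD males. Since these floor values could not pass after adjustment, the 0 does not show that no list differed. Genes named are the 6 members with the smallest p for E2, the 2 with the smallest p in each other comparison, and the member with the highest mean TPM of each of 7 roles; genes of other lists, and members that met the threshold without some libraries, were named after their values were seen. The members and the lists were chosen with earlier results of these data known. Promoter sequences are from RefSeq (GRCm38.p6). Pold4 was left out of the other replication genes because its symbol belongs to more than 1 gene.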

Additional observations from a re-analysis of the deposited data

Results flagged for a closer look

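Among 75 groups of 6 values examined (5 groups for each of 14 genes and for the summed level), 8 held an animal whose distance to the nearest other animal was a larger part of the group's range than Dixon's 95% limit for 6 samples allows; chance gives about 1 in 20. Of these, 6 concerned CD male 4. Its summed level of the 42 genes was 487.7 TPM, with the other CD males from 244.7 to 335.7 TPM. Prim1 was at 12.97 TPM (others 3.98 to 7.01), Cdc45 at 6.556 TPM (others 2.18 to 3.41), Rrm1 at 22.81 TPM (others 11.0 to 14.6), Uhrf1 at 18.85 TPM (others 5.23 to 10.1) and Gins4 at 14.16 TPM (others 10.1 to 11.5). Gins4 was at 7.755 TPM in HFD female 6, under the 11.1 to 12.6 TPM of the other HFD females. Pold2 was at 8.85 TPM in E2 male 6, above the 5.05 to 6.14 TPM of the other E2 males.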

How the results depend on the processing

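In all comparisons and alternatives run, 0 members passed the adjusted threshold. For E2 versus vehicle, the 4 members at the threshold of the study became 2 with smooth muscle markers as a covariate, 0 with squamous or pan epithelial markers as a covariate and 0 without the squamous-containing libraries (chosen after seeing the data), and leaving out 1 animal gave 0 to 11; the median log2 fold change ran from -0.28 to -0.09. With squamous markers as a covariate Pcna was at 0.0025 and Uhrf1 at 0.036, and Uhrf1 at 0.075 without those libraries. On log2(TPM + 1) group means the median was -0.27, on a scale where the median of all genes was -0.13. For HFD versus CD in males, the count of 1 became 2 with DESeq2, with all 30 libraries in one fit and with B cell markers, 3 with squamous markers, 7 without the squamous-containing libraries, and 1 to 7 when 1 animal was left out (median -0.38 to -0.05). For HFD versus CD in females, the count of 0 became 1 with squamous markers as a covariate (median -0.14, Uhrf1 -0.10) and 2 without those libraries (Uhrf1 -0.082), and 0 to 1 when 1 animal was left out (median 0.03 to 0.18). For females versus males on CD, the count of 2 became 0 with smooth muscle, B cell or pan epithelial markers, 4 with squamous markers, and 0 to 6 when 1 animal was left out (median -0.35 to -0.10); with smooth muscle markers Chaf1a was at 0.065 and Uhrf1 at 0.19. On HFD the count of 1 was 1 in every fit that left out an animal (median 0.03 to 0.19). In the difference between the sexes in the diet response, 4 members had an unadjusted p under 0.05. This count became 1 without the squamous-containing libraries and 1 to 6 when 1 animal was left out (median 0.12 to 0.46). Both alternatives were chosen after seeing the data. Among all genes, 2.09% had p under 0.05 without those libraries, and 5.16% to 11.4% when 1 animal was left out. The share of all genes at the threshold of the study moved as well. Leaving out 1 animal gave 3.67% to 9.86% for E2 and 2.27% to 4.68% for HFD in males. For HFD in females it gave 3.17% to 5.44%, and for the sexes on CD and HFD 8.1% to 11.2% and 2.36% to 5.01%. With smooth muscle markers as a covariate the share was 4.46% for E2. With squamous markers it was 2.71% for HFD in males and 8.83% for the sexes on CD. The causes of these moves were not tested. Replicate numbers come from the titles, and no source says that they mark a shared cage or day. For that reason pairing was not assumed in the main fits. The correlation of same-numbered deviations ran from -0.25 to 0.51 and was over 0.1 in 3 to 5 of 6 pairs. An animal's own number was its best match in 4 of 6 pairs for E2, for HFD in males and for the sexes on CD. It was so in 0 and 1 of 6 for HFD in females and the sexes on HFD. Same-numbered animals were thus alike in some comparisons, and the cause was not tested. A replicate block gave 5 members for E2 (7.71% of all genes), 6 for HFD in males (3.72%) and 0 for HFD in females (3.36%). For HFD in males the main fit gave 1 (2.9%). With the block 8 members there had p under 0.05, against 9.65% of all genes. For the sexes it gave 2 on CD (10.3% of all genes) and 1 on HFD (3.56%). Genes with few counts, such as Gins1 with a median of 14.0, limit what 6 animals a group can show.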
